A study of Mus musculus with 6 samples.

Results

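The 2492 genomic regions described here are all regions of mouse chromosome 15 in the lists made by chromatin immunoprecipitation sequencing (ChIP-seq) of Foxk1 and of Sin3A. They are 915 of 8857 Foxk1 regions and 1577 of 16773 Sin3A regions, or 2492 of 25630 in all, and they were chosen by the chromosome alone. Both lists come from C2C12 cells, an established line of mouse myoblasts (labelled as strain C3H), grown without starvation. The Foxk1 list was made with a commercial antibody and the Sin3A list with an antibody that the labels give by a literature reference. The series also holds a ChIP input, of which no file is analysed here, and 3 RNA libraries of the same cell line. The control library is from fed cells that received siNS, the starved library is from siNS cells kept for 4 h in HBSS, a salt solution without amino acids or serum, and the knockdown library is from fed cells that received siFoxk1. With 1 sample in each group there is no spread between replicates to measure differences against.

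Foxk1 is a forkhead transcription factor that binds DNA directly and is known as a repressor. Sin3A does not bind DNA itself. It is the scaffold of a complex that carries histone deacetylases and is brought to chromatin by transcription factors, Foxk1 among them, often at promoters. In growing muscle cells the pair is known for holding down genes of autophagy and atrophy.

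The lists give each region by its chromosome and its left and right boundary on build mm9, with no score and no read counts. The depth behind a region is therefore unknown, as are its height and enrichment, and a region can be described only by position, width, spacing and overlap. No mm9 sequence or gene annotation was used, so the regions are given by coordinates and not by gene, and no bases are printed. Chromosome 15 is set beside the other 18 autosomes, with its rank among the 19, as a description. The lists themselves led to the choice of this chromosome, and regions of 1 list are not replicates, so no test was made. The copies of each chromosome per cell and the read coverage of the libraries were not measured here.

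In the control RNA library of this line, all 6 myoblast markers fixed for the check were present, from 7.92 FPKM (fragments per kilobase of transcript, scaled to the mapped fragments of the library) for Pax7 to 485 FPKM for Des, which encodes desmin. Myod1, the myoblast determination factor, stood at 70.1 FPKM. The leukocyte marker Ptprc (0.00871 FPKM), the endothelial markers Pecam1, Cdh5 and Kdr (0.0361, 0.120 and 0.0418 FPKM), the adipocyte markers Adipoq, Plin1 and Fabp4 (0.00833, 0 and 0.388 FPKM) and the hepatocyte marker Alb (0 FPKM) were near or at 0. Cd68 stood at 2.5 FPKM and Emr1, the older name of Adgre1, was listed at 0. Of the mesenchymal markers, Thy1 was listed at 0, Pdgfra stood at 1.41 FPKM and Twist2 at 26.5 FPKM.

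Chromosome 15 held more regions of both lists than any of the other 18 autosomes. The Foxk1 list had 915 regions there, where the other autosomes had from 241 on chromosome 18 to 761 on chromosome 11, with a median of 402. The Sin3A list had 1577, where the others had from 447 on chromosome 18 to 1391 on chromosome 11, with a median of 768. Chromosome 15 is not long among the autosomes: between the first and the last listed base it spanned 100.2 Mb, the 15th longest of 19. It thus held 10.5% of the autosomal Foxk1 regions (exact Clopper-Pearson 95% interval 9.82 to 11.1) and 9.61% of the autosomal Sin3A regions (9.16 to 10.1), on 4.18% of the spanned length. These intervals and those below cover counting error only.

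Per Mb of span the Foxk1 list had 9.13 regions on chromosome 15, against a median of 3.15 on the other autosomes and 6.41 on chromosome 11, the next highest. The Sin3A list had 15.7 regions per Mb, against a median of 6.27 and 11.7 on chromosome 11. Chromosome 15 was therefore at 2.90 times the median for Foxk1 and 2.51 times for Sin3A. Chromosome 11 is rich in genes, and the order behind chromosome 15 changed when regions were counted per gene. Per 100 genes at 1 FPKM or more in the control RNA library, chromosome 15 held 218 Foxk1 regions, where the other autosomes held from 35.1 to 111, with chromosome 10 the next highest. For Sin3A it held 375, where the others held from 91.9 to 199, again with chromosome 10 next. On this scale chromosome 11 stood at 88.2 Foxk1 and 161 Sin3A regions, near the medians of 86.9 and 157.

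**Figure D1:**
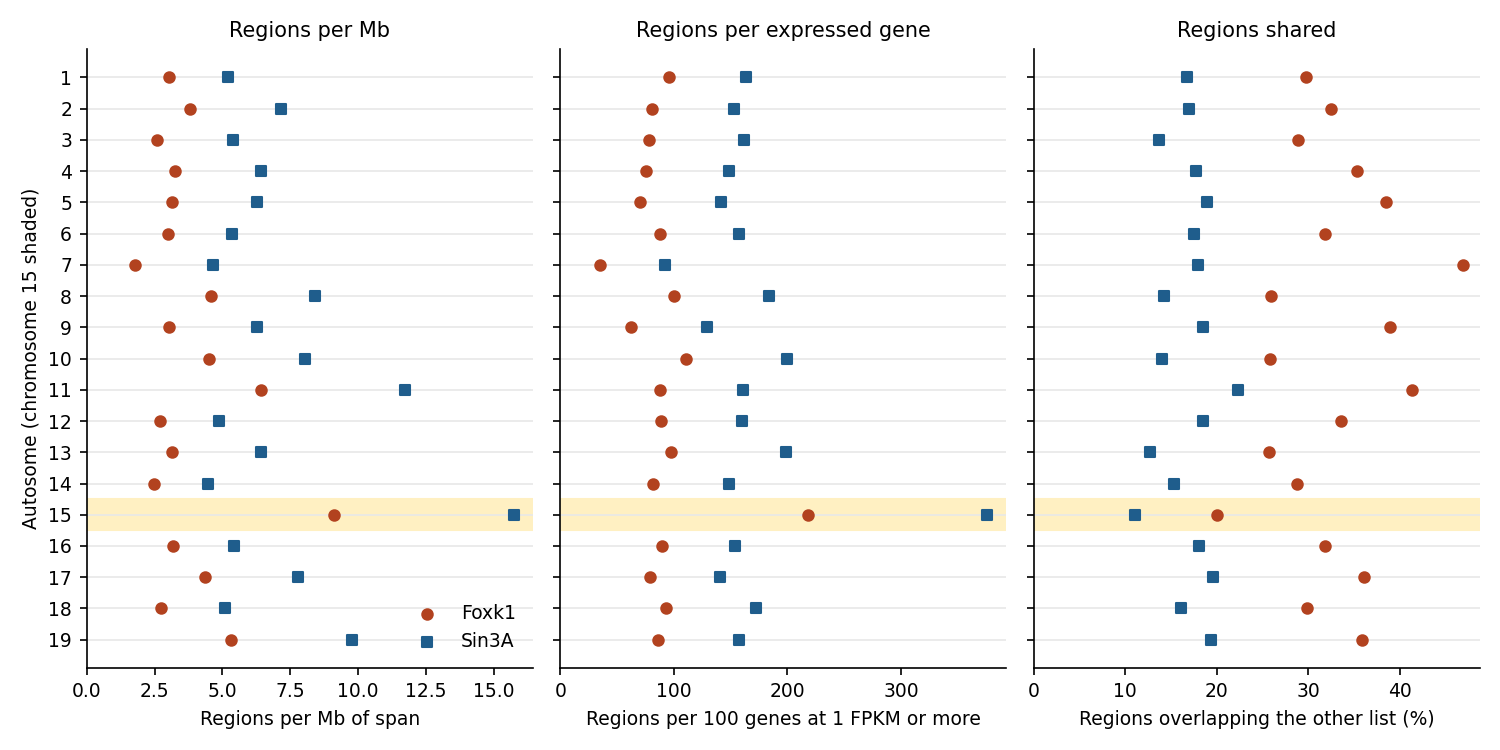
Each row is an autosome, with chromosome 15 shaded, and points give the Foxk1 (circles) and Sin3A (squares) lists: regions per Mb of span (left), regions per 100 genes at 1 FPKM or more in the control RNA library (middle), and the percent of regions that overlap the other list (right). Chromosome 15 is the highest row for both lists in the left and middle panels and the lowest for both in the right panel, at 20% for Foxk1 and 11.0% for Sin3A.

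Regions of the 2 lists coincided less often on chromosome 15 than on any other autosome. A region is called shared here where it overlaps a region of the other list by at least 1 base. On chromosome 15, 183 of 915 Foxk1 regions were shared, or 20% (17.5 to 22.7), beside 31.7% over all autosomes, chromosome 15 included. The other autosomes ranged from 25.7% on chromosome 13 to 47.0% on chromosome 7. Of the 1577 Sin3A regions, 174 were shared, or 11.0% (9.53 to 12.7), beside 16.6% over all autosomes and a range of 12.7% to 22.3% on the others. Where the overlap had to cover 50% of both regions, the shares on chromosome 15 were 8.96% for Foxk1 and 5.20% for Sin3A, again the lowest of the 19 autosomes. With overlapping regions counted as 1 site, chromosome 15 had 2305 sites: 732 of Foxk1 alone, 1403 of Sin3A alone and 170 of both. Sites of both made up 7.38% of the total, where the other autosomes had 9.21% to 16.6%.

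The lower share did not come with fewer shared regions. Shared Foxk1 regions stood at 1.83 per Mb on chromosome 15, against a median of 1.08 on the other autosomes, the third highest value after chromosomes 11 and 19. Foxk1 regions without Sin3A stood at 7.30 per Mb, against a median of 2.12 and a highest value of 3.76 on chromosome 11. Shared regions were thus at 1.69 times and unshared regions at 3.45 times the median. In the Sin3A list the shared regions were at 1.65 times and the unshared at 2.75 times the median of the other autosomes (1.74 and 14.0 per Mb on chromosome 15).

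Unshared regions of one list still lay near the other list. The 732 unshared Foxk1 regions of chromosome 15 were a median of 17.9 kb from the nearest Sin3A region, where the other autosomes had medians of 19.6 to 49.2 kb. Of these 732, 39 lay within 1 kb (5.33%), 243 within 10 kb (33.2%) and 701 within 100 kb (95.8%). On the other autosomes together the percents of unshared Foxk1 regions were 4.42, 22.9 and 81.9. The 1403 unshared Sin3A regions were a median of 33.9 kb from the nearest Foxk1 region, where the other autosomes had 34.6 to 87.7 kb. Such distances become shorter wherever both lists are denser, as on this chromosome.

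Sin3A regions were narrower on chromosome 15 than on every other autosome. Their median width was 588 bp (exact binomial 95% interval of the median 577 to 603), where the other autosomes had medians from 642 bp on chromosome 10 to 813 bp on chromosome 7. The middle of the distribution, from the lower to the upper quartile, ran from 466 to 854 bp, and the full range from 207 to 6902 bp. Under 500 bp were 513 Sin3A regions, or 32.5% (30.2 to 34.9), beside 23.9% over all autosomes and a highest value of 25.8% on chromosome 8 among the others. At 1000 bp or more were 309, or 19.6% (17.7 to 21.6), beside 30.6% over all autosomes and a lowest value of 25.6% on chromosome 10 among the others.

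Foxk1 widths differed in the opposite direction and by much less. Their median on chromosome 15 was 603 bp (585 to 616), the highest of the 19, where the others ran from 559 to 595 bp with a median of 585 bp. Quartiles were 488 and 760.5 bp, and the range was 210 to 2425 bp. At 1000 bp or more were 85 Foxk1 regions, or 9.29% (7.49 to 11.4), beside 6.71% over all autosomes and a range of 3.79% to 8.46% on the others. Under 500 bp were 251, or 27.4%, beside 31.1% over all autosomes. The smaller share of wide Sin3A regions did not extend to the widest: 86 Sin3A regions of chromosome 15 (5.45%) were of 2000 bp or more, beside 5.26% on the other autosomes together.

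**Figure D2:**
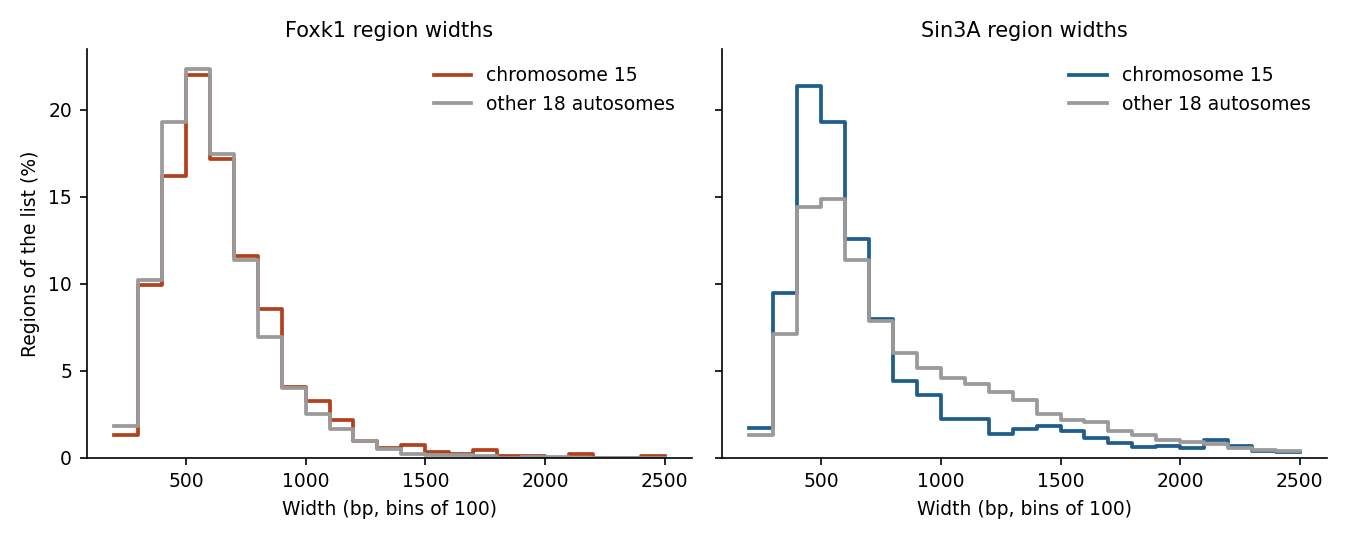
Lines give the percent of regions in bins of 100 bp of width, between 200 and 2500 bp, for chromosome 15 (colour) and for the other 18 autosomes together (grey), with Foxk1 on the left and Sin3A on the right. The Foxk1 lines nearly coincide, with medians of 603 and 582 bp, and the Sin3A line of chromosome 15 lies above the grey line at small widths and below it from 800 to 2000 bp, with medians of 588 and 709 bp.

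Split by width, each class of Sin3A regions was denser than the median of the other autosomes, by different factors. Narrow regions, under 500 bp, stood at 5.12 per Mb on chromosome 15, 3.86 times the median of the other autosomes (1.33) and above the next highest value of 2.74 on chromosome 11. Those of 500 to under 1000 bp stood at 7.53 per Mb, 2.76 times the median (2.73), a lower factor but a larger difference in regions per Mb. Wide regions, of 1000 bp or more, stood at 3.08 per Mb, 1.60 times the median and below chromosomes 11 and 19 (4.04 and 3.50). For Foxk1 the order was reversed: narrow regions were at 2.47 times, those of 500 to under 1000 bp at 3.02 times and wide ones at 4.19 times the median. Per 100 genes at 1 FPKM or more, chromosome 15 was the highest of the 19 for wide Sin3A regions too. It had 73.6, and chromosome 19, the next, had 56.4. On that scale narrow Sin3A regions were at 3.38 times, those of 500 to under 1000 bp at 2.58 times and wide ones at 1.48 times the median.

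Wide regions were shared most often in both lists. Of 309 wide Sin3A regions on chromosome 15, 103 were shared with Foxk1, or 33.3% (28.1 to 38.9), close to the 32.3% (31.0 to 33.7) of the other autosomes together. Of 755 Sin3A regions of 500 to under 1000 bp, 53 were shared, or 7.02% (5.30 to 9.08), where the others had 12.6% (11.8 to 13.4). Of 513 narrow Sin3A regions 18 were shared, or 3.51% (2.09 to 5.49), where the others had 5.43% (4.70 to 6.25). Chromosome 15 was the lowest of the 19 for 500 to under 1000 bp but not for narrow regions, where chromosome 3 had 3.14%. Wide regions were 59.2% of all shared Sin3A regions on chromosome 15 and 59.7% on the other autosomes.

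In the Foxk1 list the share was lower in each width class than on the other autosomes together. It was 17.5% (13.0 to 22.8) for 251 narrow regions, where the other autosomes together had 28.2% (26.5 to 30.1). It was 17.3% (14.3 to 20.6) for 579 regions of 500 to under 1000 bp, where the others had 33.0% (31.7 to 34.3). It was 45.9% (35.0 to 57.0) for 85 wide regions, where the others had 58.0% (53.5 to 62.3). Only for 500 to under 1000 bp was chromosome 15 the lowest of the 19 autosomes. The lowest value was 17.4% on chromosome 8 for narrow regions and 40% on chromosome 14 for wide ones.

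**Figure D3:**
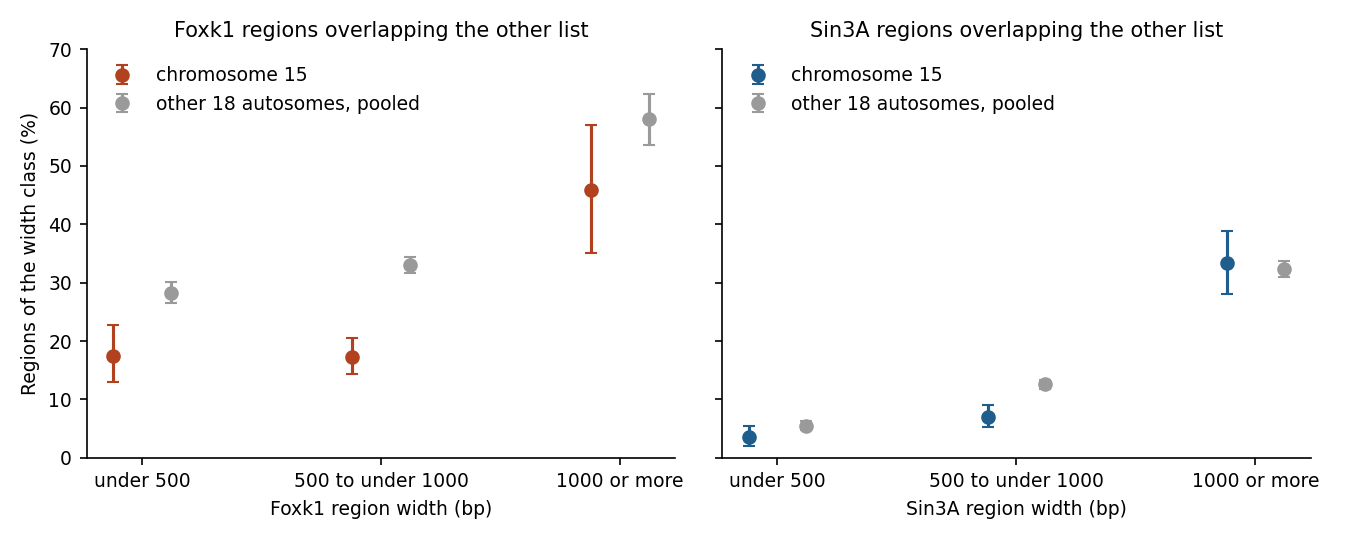
Points give the percent of regions that overlap the other list, by width class, on chromosome 15 (colour) and on the other 18 autosomes pooled (grey), and bars give exact 95% binomial intervals, which cover counting error only. Wide Sin3A regions stand at 33.3% and 32.3%, and Foxk1 regions of 500 to under 1000 bp are shared at 17.3% on chromosome 15 and 33.0% on the others.

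Where the lists met on chromosome 15, they formed 187 overlapping pairs with a median overlap of 538 bp. In 147 pairs (78.6%) the Sin3A region was the wider, the lowest percent of the 19 autosomes, whose others had 80.2% to 91.0%. In 92 pairs (49.2%) the Foxk1 region lay wholly inside the Sin3A region, where the other autosomes had 42.7% to 65.9%. The centres were a median of 241 bp apart, the longest such distance of the 19 autosomes, whose others ran from 137 to 219.8 bp. Shared Foxk1 regions had a median width of 710 bp and unshared ones 586.5 bp. Shared Sin3A regions had a median of 1213.5 bp and unshared ones 570.0 bp, and it was in the unshared Sin3A regions that chromosome 15 again had the lowest median of the 19 autosomes (604 to 776.5 bp on the others).

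The longest overlap on the chromosome was 2099 bp, between the Foxk1 region chr15:38229811-38232235, at 2425 bp the widest of its list on this chromosome and the second widest of all autosomes, and the Sin3A region chr15:38228947-38231909. It was followed by 4 pairs with overlaps of 1483, 1471, 1463 and 1434 bp. In the first 3 of these the Foxk1 region was wholly covered, at chr15:25551750-25553232, chr15:88692028-88693498 and chr15:81640404-81641866. The fourth pair joined the Foxk1 region chr15:76285972-76288170, of 2199 bp, to a Sin3A region of 2255 bp. All 5 of the widest Foxk1 regions overlapped 1 Sin3A region each. Of the 8 autosomal Foxk1 regions of 2000 bp or more, 3 were on chromosome 15.

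The widest Sin3A regions did not all meet Foxk1. The widest, chr15:102791816-102798717 of 6902 bp, overlapped 1 Foxk1 region and was the third widest of all autosomes. The next, chr15:76032386-76038980 of 6595 bp, overlapped none, and its nearest Foxk1 region was 30.6 kb away. The third, chr15:59477716-59482881 of 5166 bp, overlapped 2. The fourth, chr15:53174082-53178768 of 4687 bp, overlapped none, with Foxk1 40.6 kb away, and the fifth, chr15:67006301-67010662 of 4362 bp, overlapped 1. One Sin3A region, chosen after its values were seen, overlapped 3 Foxk1 regions: chr15:88691444-88695310, of 3867 bp, with Foxk1 regions of 461, 1471 and 1114 bp inside it. At the other end, the narrowest regions were alone. The Foxk1 regions of 210 bp (chr15:64161843-64162052) and 249 bp (chr15:80726125-80726373) and the Sin3A regions of 207 bp (chr15:32850712-32850918) and 219 bp (chr15:77594898-77595116) overlapped no region of the other list.

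Neighbouring regions were close. The median gap between Foxk1 regions was 52.2 kb on chromosome 15, the shortest of the 19 autosomes, whose others ran from 60.3 kb on chromosome 11 to 153 kb on chromosome 13. The median gap between Sin3A regions was 35.9 kb, and chromosome 11 had 35.8 kb, with the others up to 92.4 kb. The shortest gaps were 117 bp in the Foxk1 list and 104 bp in the Sin3A list. No gap in the Sin3A list was above 1 Mb: the longest was 761 kb, at chr15:29704597-30466070, where the longest gaps of the other autosomes were 1257 to 7648 kb. The next longest Sin3A gaps were 699.6 kb at chr15:60283377-60983015, which held 2 Foxk1 regions, and 575 kb at chr15:28962955-29538353, which held none.

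The Foxk1 list had long empty stretches that still held Sin3A regions, though few for this chromosome in the longest of them. Its longest gap, 4854 kb at chr15:17541336-22395280, held 42 Sin3A regions. The next, 2657 kb at chr15:46354788-49011681, held 23, and the third, 1710.2 kb at chr15:13593293-15303505, held 9. In all, 9 of 914 Foxk1 gaps were above 1 Mb. The longest Foxk1 gap of chromosome 15 was not unusual in length, since those of the other autosomes had a median of 5578 kb.

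**Figure D4:**
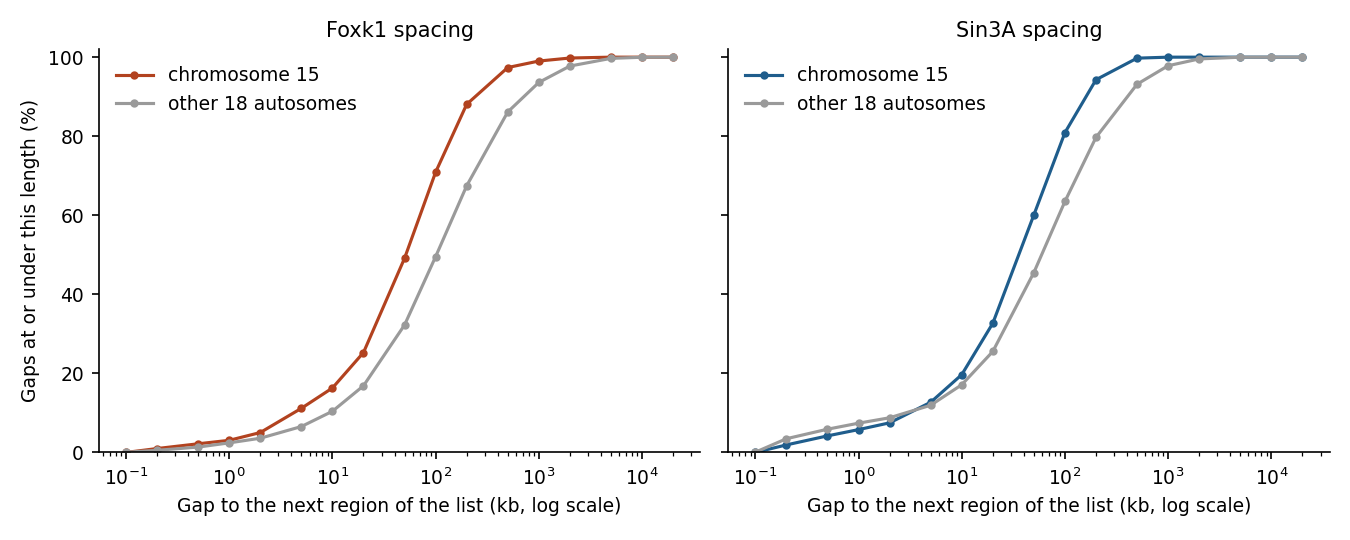
Lines give the percent of gaps between neighbouring regions of 1 list that are at or under each length, on a log scale in kb, for chromosome 15 (colour) and the other 18 autosomes together (grey). At 100 kb the Foxk1 lines stand at 70.9% and 49.5% and the Sin3A lines at 80.9% and 63.5%, while at 1 kb the Sin3A line of chromosome 15 is the lower, at 5.77% against 7.40%.

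Some regions stood in local groups, defined as having a neighbour of the same list within 10 kb. Of the Foxk1 regions 271 did so, or 29.6% (26.7 to 32.7), beside 20.2% over all autosomes and a highest value of 29.3% on chromosome 11 among the others. Of the Sin3A regions 539 did so, or 34.2% (31.8 to 36.6), beside 30.4% over all autosomes. Chromosomes 19 and 11 were higher for Sin3A, at 40.3% and 40.0%. Short gaps and neighbours within 10 kb become more frequent wherever a list is denser, as on this chromosome. Chromosome 11 had its percents at a lower density, of 6.41 Foxk1 and 11.7 Sin3A regions per Mb, against 9.13 and 15.7 on chromosome 15. At this setting the Foxk1 list formed 122 groups of at least 2 regions, of which 3 had 4 or more, and the Sin3A list formed 229, of which 13 had 4 or more.

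The largest group was one of 13 Sin3A regions over 36.5 kb at chr15:102778379-102814899. Its members were 514 to 6902 bp wide and covered 24026 bp together, 5 of them were shared, and 5 Foxk1 regions lay in the stretch. It contained the widest Sin3A region of the chromosome, with 6 members before it and 6 after it. The second group, at chr15:85483903-85513097, had 9 Sin3A regions of 790 to 3271 bp over 29.2 kb, of which 2 were shared. The third, at chr15:10390623-10416557, had 5 Sin3A regions, none of them shared.

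Groups of Foxk1 regions were smaller. The largest had 5 regions of 425, 1668, 752, 565 and 646 bp within 6.41 kb, at chr15:10743550-10749961, with no Sin3A region in the stretch. A group of 4 at chr15:27450213-27460156 also held no Sin3A region. Another group of 4, at chr15:76984178-76994514, had 3 shared members and 2 Sin3A regions. A dense run of Foxk1 regions on this chromosome was therefore found both with and without Sin3A.

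Along the chromosome the higher density was spread out. Of its 5 Mb windows, counted from base 1, 19 were complete, meaning that the listed regions extended past both ends, and the other autosomes had 446 such windows. Sin3A counts in the 19 windows ran from 35 to 124 with a median of 74, where the windows of the other autosomes had a median of 28 and an upper quartile of 41. All 19 were above that median and 17 above that upper quartile. Foxk1 counts ran from 2 to 83 with a median of 49, where the others had a median of 15 and an upper quartile of 23, and 17 of the 19 windows were above the median. Narrow Sin3A regions numbered 11 to 41 per window, above the upper quartile of the others (10) in all 19, whereas wide Sin3A regions had a median of 10 per window, beside 8 on the others.

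The densest window was chr15:75000001-80000000, with 83 Foxk1 and 124 Sin3A regions, followed by chr15:95000001-100000000, with 70 and 114. Complete windows of the other autosomes reached similar counts, up to 84 Foxk1 and 121 Sin3A regions. The sparsest complete windows were chr15:45000001-50000000, with 2 Foxk1 and 35 Sin3A regions, and chr15:15000001-20000000, with 4 and 35. These sparse windows had no shared region and no Sin3A region of 1000 bp or more. Foxk1 counts thus varied by a larger factor between windows than Sin3A counts did. The ratio of Sin3A to Foxk1 regions was 17.5 in the sparsest window and 1.49 in the densest, and 1.72 over the whole chromosome.

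Shared regions were concentrated in a few windows, mostly in the part of the chromosome with higher coordinates. In chr15:75000001-80000000, 29 of 83 Foxk1 regions were shared (34.9%), and the next window had 20 of 60 (33.3%). In chr15:95000001-100000000 it was 21 of 70 (30.0%), and in the last, incomplete window 26 of 60 (43.3%). By contrast, in a pair of windows chosen after their values were seen, chr15:50000001-55000000 had 58 Foxk1 regions with 2 shared (3.45%), and chr15:70000001-75000000 had 41 with 1 shared (2.44%). The first of these held 67 Sin3A regions, so both lists were well filled there with little overlap. In 17 of the 19 complete windows the shared percent of Foxk1 was below the median window of the other autosomes (31.2%).

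**Figure D5:**
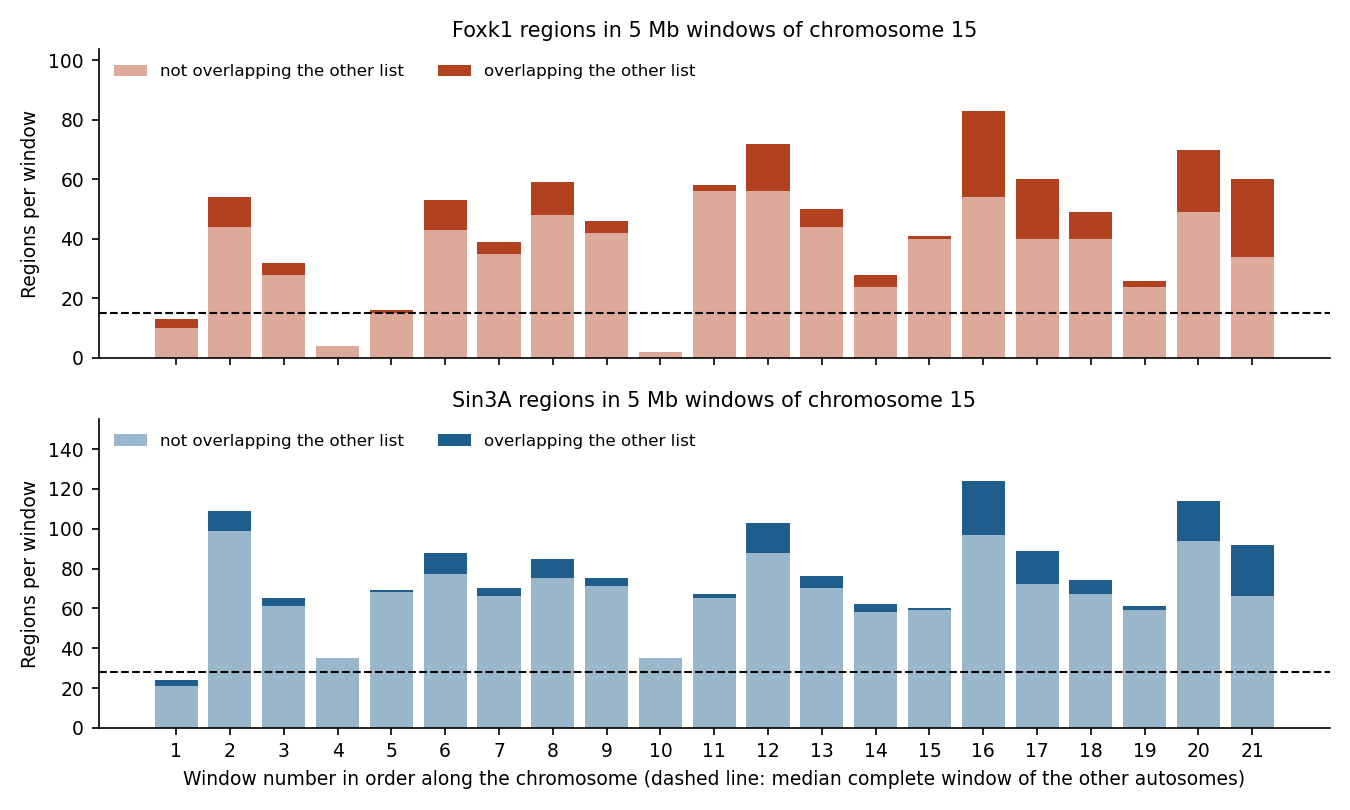
Bars give the number of Foxk1 (top) and Sin3A (bottom) regions in windows of 5 Mb, numbered in order along chromosome 15, with the darker part showing regions that overlap the other list, and the dashed line is the median complete window of the other autosomes (15 for Foxk1, 28 for Sin3A). The first and last windows are incomplete. Sin3A bars of all complete windows are above the line, Foxk1 bars drop to 4 and 2 in windows 4 and 10, and most shared regions are in windows 12, 16, 17, 20 and 21.

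Over the 19 complete windows the counts of the lists went together, with a Pearson r of 0.90 and a Spearman rho of 0.88 between Foxk1 and Sin3A regions. The number of shared Foxk1 regions went with the number of wide Sin3A regions (r 0.96, rho 0.88) more closely than with the number of narrow ones (r 0.58, rho 0.70). These are descriptions over neighbouring windows of 1 chromosome, taken from the same libraries. A Foxk1 region counts as shared only through a Sin3A region that it overlaps. Of the 174 shared Sin3A regions of the chromosome, 103 were wide and 18 narrow. The closer relation with wide regions is therefore partly built in.

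With regions counted per expressed gene, the features seen on chromosome 15 also varied together over the other autosomes. Over those 18 the number of Sin3A regions per 100 expressed genes went with a lower median Sin3A width (r -0.84, rho -0.75) and a lower Sin3A share in common with Foxk1 (r -0.54, rho -0.61). For Foxk1, regions per 100 expressed genes went with a lower share in common with Sin3A (r -0.82, rho -0.72). Chromosomes 10, 13 and 8, the next densest for Sin3A on this scale, had Sin3A medians of 642, 674 and 669.5 bp and Foxk1 shares of 25.8%, 25.7% and 26.0%. Chromosome 7, the least dense, had 813 bp and 47.0%. Per Mb of span the picture differed, with chromosomes 11 and 19 the next densest for both lists. Their Sin3A medians of 737 and 748.5 bp and Foxk1 shares of 41.4% and 35.9% were above the medians of the other autosomes (708.75 bp and 32.2%). The relations per Mb were not computed. Among the autosomes, chromosome 15 had the highest density, the lowest Sin3A width and the lowest shares. The X chromosome, which was left out of these comparisons, had a Sin3A median width of 595 bp and a Sin3A share in common with Foxk1 of 8.41%, but 106 Sin3A regions per 100 expressed genes. Narrow and seldom shared Sin3A regions also occurred on the X chromosome, but its list of Foxk1 regions was short, at 95. Of those Foxk1 regions 30.5% were shared, beside 20% on chromosome 15. The points of these relations come from the same 2 lists and use the same gene counts. In the relations of density to share, the number of regions of a list enters the density and also divides the share. A negative relation is therefore partly built in there.

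RNA of genes assigned to chromosome 15 gave a readout that the regions did not use. Of 700 chromosome 15 genes with a row in the RNA tables, 420 (60%) were at 1 FPKM or more in the control library. Their median was 20.2 FPKM, the highest of the 19 autosomes, whose others ran from 11.5 FPKM on chromosome 7 to 17.6 FPKM on chromosome 10, with a median of 14.4. Chromosome 15 thus stood first in the median RNA level as well as in the number of regions, and the part of either in the other was not tested. Over the other 18 autosomes the median RNA level went only weakly with Sin3A regions per 100 expressed genes (r 0.42, rho 0.29) and with Foxk1 regions (r 0.47, rho 0.21).

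The shares of these genes that differed between libraries lay within the range of the other autosomes. A gene is called apart where the authors' 95% intervals in a pair of libraries do not overlap, which compares those libraries and not the conditions. In the starved library 69 of 430 chromosome 15 genes were higher apart (16.0%), beside 12.6% over all autosomes and a range of 9.33% to 18.4% on the others. Lower apart were 48 (11.2%), beside 11.5%. In the Foxk1 knockdown library 42 of 428 were higher apart (9.81%), beside 9.34%, and 30 lower apart (7.01%), beside 7.48%. Both comparisons use the same control library. The median log2((FPKM + 1)/(FPKM of the control + 1)) of chromosome 15 genes was 0.01 in each. Which of these genes lie near a Foxk1 or Sin3A region was not analysed here.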

How the data were processed

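The members and the measures were chosen with earlier results of these data known. Per the submitters' processing notes, all data were placed on mm9. For ChIP-seq the notes name bedtools, SAMtools 0.1.19 and BWA 0.7.5a, and for RNA Cuffdiff, Cufflinks 2.1.1, Bowtie2 2.1.0 and TopHat2 2.0.9. What is not given in the sources used here includes tool options, the region caller with its thresholds, and any joining of regions or samples. The authors deposited mean FPKM with 95% limits for each gene symbol, per the file headers, and region boundaries in bases without a score.

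Boundaries were read as BED, and starts are printed counted from base 1. The Sin3A list held 6 repeated lines, 0 of them on chromosome 15, which were removed. Regions of 1 list did not overlap each other. Width is the right minus the left boundary. The X chromosome and mitochondrial regions were left out of comparisons. Span runs from the first to the last listed base of either list. Genes were assigned to chromosomes by symbol from RefSeq (assembly GRCm38.p6, protein-coding, no coordinates used): 19615 of 22292 single-symbol rows matched, 1361 through synonyms. One RNA row with reversed limits was dropped.

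Regions named are the 5 widest and 2 narrowest of each list, the 5 longest overlaps, the 3 largest groups and 3 longest gaps of each list, and the 2 densest and sparsest complete windows. Any other region or window was picked with its values in view. The first and last region of each list, also in that rule, were used only to set the span. Printed intervals are exact binomial ones. Alternatives for densities and windows were judged against Poisson intervals of the counts. The functions were tested on simulated regions with planted overlaps. Alternatives covered the overlap rule, joining of near regions, the denominator, the width statistic, the group distance and the window size. Python 3.11.15, numpy 2.4.6, pandas 2.3.3 and scipy 1.17.1 were used.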

Additional observations from a re-analysis of the deposited data

How the results depend on the processing

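Of 36 alternatives over 14 results, 18 gave values outside the counting interval of the reported value, and none of the region counts changed by more than 1.5 times. Another group distance or overlap rule moves a percent by construction, and mean widths were set against intervals of medians. Relative to the median of the other autosomes, the density on chromosome 15 was 2.51 times for Foxk1 and 2.39 times for Sin3A per expressed gene, and 3.15 and 2.18 times with regions of 500 bp or wider only. Shared percents were 8.96 (Foxk1) and 5.20 (Sin3A) when the overlap had to cover 50% of both regions, and 24.3 and 14.5 when a gap of 1 kb was allowed. In each of these settings chromosome 15 had the most regions, or the lowest share, of the 19 autosomes. Mean widths were 658 bp (Foxk1) and 798 bp (Sin3A), highest and lowest of the 19, as the medians were. Joining Sin3A regions within 1 kb gave a median gap of 39.9 kb. With neighbours within 5 kb, 20.7% of Foxk1 and 22.3% of Sin3A regions were in local groups, and within 20 kb 42.4% and 52.1%. At 5 kb chromosome 15 was the seventh of 19 for Sin3A, and at 20 kb the second for Foxk1. The densest window held 1.69 (Foxk1) and 1.68 (Sin3A) times the median window, 2.44 and 2.03 times with windows of 2 Mb, and 1.17 times for Sin3A with windows of 10 Mb.

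No paired analysis was possible because each group has 1 sample. Without scores or read counts, the lists cannot show how near a region lay to the caller's threshold, and the absence of a region is not evidence that the protein was absent there.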
